A study of Homo sapiens with 27 samples.

Results

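Cells make their own respiratory chain partly with a second ribosome, and the 76 genes described here are named for its proteins. They are rows of the deposited table of 23228 gene symbols, valued at 10 or more in at least 3 of 27 libraries. Their symbol is MRPL (named for the large subunit, 47 genes) or MRPS (named for the small subunit, 29 genes), then a number and at most a letter A to C. Subunits are counted by symbol, and a product can sit elsewhere, as given below for MRPS18A and MRPS36. All 76 matching symbols met the level rule, and all 76 were tested in every line. Total RNA was sequenced from 3 human castration-resistant prostate cancer lines, each a chemotherapy-resistant subline (DU145-DR, 22Rv1-DR and ARCaPM-DR). Each line carried one of a pair of hairpins, shGATA2a or shGATA2b, that target the transcription factor GATA2, or a random control hairpin (Control), with 3 libraries in each of the 9 groups. The question put by the design is which transcripts change when GATA2 is depleted. Nothing in the labels tells whether the replicates are separate cultures, and the p-values therefore reflect only the scatter among libraries, which may be technical.

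Mitochondrial ribosomes translate the few messages of the mitochondrial genome, all of them for core subunits of the oxidative phosphorylation complexes. Their ribosomal RNAs are made inside mitochondria, whereas every ribosomal protein is encoded in the nucleus, translated in the cytosol and imported. Many of these proteins have bacterial counterparts, and others occur only in mitochondria.

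The deposited values are read counts divided by a single size factor per library, here called normalised read counts, and are not divided by gene length. Depth ran from 3.44 M to 19.4 M recovered reads per library, with a median of 12.87 M. All 2052 values of the 76 genes were whole reads within 0.005 reads, and the lowest of them stood for 6 reads. GATA2 itself fell in every line, with log2 changes of -1.85 (DU145-DR), -1.71 (22Rv1-DR) and -2.56 (ARCaPM-DR). The limma p-values, Benjamini-Hochberg adjusted, were 5.543e-05, 0.02565 and 8.78e-05 in the same order. However, 12 of its values, none in ARCaPM-DR, were not whole reads. In 22Rv1-DR these were 5 of 6 knockdown and 2 of 3 Control values, so the check of the hairpins there rests largely on such values. In DU145-DR they were 2 knockdown and 3 Control values. Of the lineage markers, the luminal prostate marker KLK3 was listed at 0 in all DU145-DR and ARCaPM-DR libraries. The epithelial marker EPCAM was at least 50.7 in every library, whereas CDH1 was at most 3.45 in DU145-DR. The blood and endothelial markers PTPRC and PECAM1 never exceeded 4.17 and 1.72. The 22Rv1-DR libraries of replicate 3 stood apart for these genes in all 3 arms, so results that rest on 22Rv1-DR are given with and without them.

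Depletion of GATA2 changed few of the 76 transcripts. With both hairpins set against Control in a line and a threshold of 0.05 on the adjusted p over all genes tested, 9 members passed in DU145-DR (4 up, 5 down), 0 in 22Rv1-DR and 4 in ARCaPM-DR (3 up, 1 down). Over all genes tested, 16.7% passed in DU145-DR (8.72% up and 7.98% down), 0.4% in 22Rv1-DR and 18.5% in ARCaPM-DR (9.86% up and 8.62% down). The 22Rv1-DR share rests on genes with values that were not whole reads. With those 58 genes left out, 1 of 13699 genes passed there. In DU145-DR the members' share was thus near the background for either direction. No member was called in more than 1 line, a count for which no share of all genes in this fit is given here. In bulk RNA, fewer cells of a type and less RNA per cell cannot be told apart.

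The typical size of change was also small. The median log2 change (knockdown minus Control) was 0.05 over the members in DU145-DR, beside 0.00 over all genes tested. It was 0.11 in 22Rv1-DR, beside -0.02 (0.00 and -0.01 without replicate 3), and 0.03 in ARCaPM-DR, beside 0.00. The median size of the change, whichever its direction, was 0.13 in DU145-DR (0.19 over all genes), 0.17 in 22Rv1-DR (0.19) and 0.16 in ARCaPM-DR (0.28). More members were higher than lower in DU145-DR (50 and 26) and in 22Rv1-DR (48 and 28, but 37 and 39 without replicate 3), and the numbers were nearly even in ARCaPM-DR (39 and 37). The 9 calls in DU145-DR fell on 2 of 47 large subunit symbols and 7 of 29 small subunit symbols, and the 4 in ARCaPM-DR on 2 and 2. Of all genes, 16.7% passed in DU145-DR and 18.5% in ARCaPM-DR. Those 7 include MRPS18A, whose product sits in the large subunit, and a difference between the subunits was not tested.

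**Figure D1:**
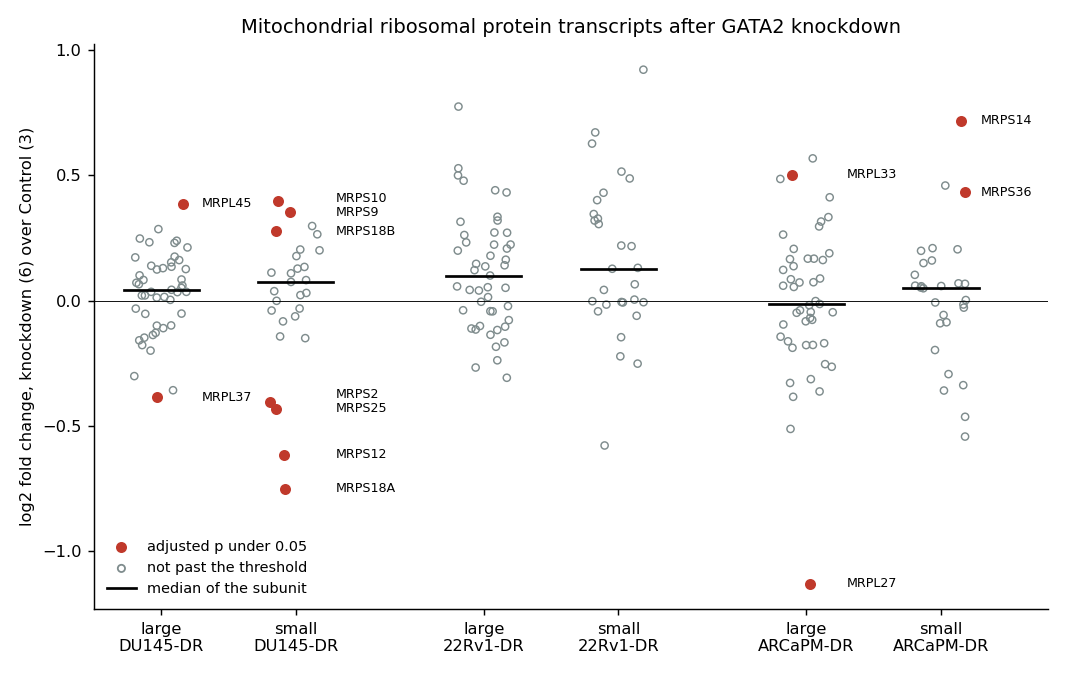
Log2 change with GATA2 knockdown (mean of both hairpin groups minus Control) of the 76 genes in each line, with MRPL and MRPS symbols drawn apart and the genes past an adjusted p of 0.05 filled and named. Most points lie close to 0 in DU145-DR and ARCaPM-DR, MRPL27 is the lowest point in ARCaPM-DR, and no gene is filled in 22Rv1-DR.

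Same-numbered libraries within a line deviated together, so a fit with the replicate number as a block was also made. It called 13 members up and 7 down in DU145-DR, where 38.8% of all genes passed (19.6% up and 19.2% down), and 11 up and 6 down in ARCaPM-DR, where 45% passed (22.4% up and 22.6% down). All 9 and all 4 of the calls above were among them. In 22Rv1-DR the blocked fit called 0 members, with 1.21% of all genes passing. With the block, MRPL33, MRPL39, MRPL45 and MRPS10 rose and MRPS2 fell in both DU145-DR and ARCaPM-DR. Those 4 and 1 of 76 genes stand against 7.73% and 7.55% of the genes tested in both lines, and 0 members moved in opposite directions, against 5.2% of all genes.

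In DU145-DR, 5 members fell. MRPS18A, a relative of a bacterial small subunit protein whose human product sits in the large subunit, had normalised read counts of 259, 304 and 191 with shGATA2a and 201, 257 and 229 with shGATA2b, against 452, 418 and 338 with the control hairpin. All 6 knockdown libraries lay below all 3 Controls, and its log2 change was -0.75 (SE 0.15, limma adjusted p = 0.006083). MRPS12, the counterpart of the bacterial protein at the decoding centre of the small subunit, had 198, 253 and 204 with shGATA2a and 197, 286 and 191 with shGATA2b, against 322, 396 and 298 with the control hairpin. Again no knockdown library reached the lowest Control, with a change of -0.62 (SE 0.15, limma adjusted p = 0.01535). MRPL37, a large subunit protein found only in mitochondria, had 848, 1005 and 1017 with shGATA2a and 984, 1155 and 1056 with shGATA2b, against 1325, 1336 and 1288 with the control hairpin. The Controls were tightly grouped above every knockdown library, and the change was -0.39 (SE 0.09, limma adjusted p = 0.01136).

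The other decreases in DU145-DR were in MRPS25, a small subunit protein without a bacterial counterpart, and MRPS2, which has one. MRPS25 had 394, 453 and 513 with shGATA2a and 435, 413 and 554 with shGATA2b, against 584, 554 and 725 with the control hairpin. The highest knockdown library lay just below the lowest Control, level with it to the first decimal, and the log2 change was -0.43 (limma adjusted p = 0.03578). MRPS2 had 376, 451 and 440.1 with shGATA2a and 422, 582 and 448 with shGATA2b, against 583, 656 and 550.1 with the control hairpin. Replicate 2 of shGATA2b lay above the lowest Control, so the groups overlapped, and the change was -0.40 (limma adjusted p = 0.03342). Exons of all 5 genes that fell overlap another gene on the opposite strand (RSPH9 for MRPS18A, SARS2 for MRPS12, SSBP3 for MRPL37, NR2C2 for MRPS25 and C9orf116 for MRPS2). The strand setting of the counting is unknown here, so reads of these neighbours cannot be told apart from the members' own. Such overlap is common in the set: 34 of all 76 members share exon sequence with another gene, on either strand. Of the members that rose in DU145-DR, MRPS9 overlaps UTAT33 on the opposite strand, and MRPS10, MRPL45 and MRPS18B have no overlap. A link between overlap and the direction of change was not tested.

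In DU145-DR, 4 members rose, by 0.28 to 0.40 on the log2 scale. MRPS10, a small subunit protein with a bacterial counterpart, had 1049, 1001 and 1039.8 with shGATA2a and 1151, 863 and 984 with shGATA2b, against 753, 722 and 828 with the control hairpin. The groups did not overlap, and the log2 change was 0.40 (SE 0.10, limma adjusted p = 0.01524). MRPL45, which anchors the ribosome to the inner membrane beside the exit of the nascent chain, had 778, 904 and 681 with shGATA2a and 712, 694 and 660.0 with shGATA2b, against 577, 573 and 535 with the control hairpin. Every knockdown library lay above every Control, most clearly with shGATA2a, and the change was 0.39 (limma adjusted p = 0.01735). MRPS9, another small subunit protein of bacterial descent, had 217, 220.3 and 224 with shGATA2a and 221, 192 and 209.7 with shGATA2b, against 168, 187 and 149 with the control hairpin. Its groups did not overlap, but the distance from the lowest knockdown library to the highest Control was only a few counts, and the change was 0.35 (limma adjusted p = 0.04346).

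MRPS18B completed the increases in DU145-DR, with 908, 889.7 and 831 with shGATA2a and 795, 829 and 885 with shGATA2b, against 692, 672 and 754 with the control hairpin. The 6 knockdown libraries lay above the Controls, and the log2 change was 0.28 (SE 0.08, limma adjusted p = 0.03579). Humans have 3 paralogues of the single bacterial counterpart, and in DU145-DR they did not move as 1 group. MRPS18A fell and MRPS18B rose, while MRPS18C had a change of 0.26 that did not pass (limma adjusted p = 0.2791), and did with the replicate as a block (limma adjusted p = 0.02357). Read sharing is a limit here: 6 of the 13 members called in any line have annotated pseudogenes, MRPS10, MRPL45, MRPS18A and MRPS18B among them.

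Most DU145-DR calls depended on single libraries. Leaving out each of the 9 libraries in turn, MRPS18A passed every time, with a highest adjusted p of 0.04243. MRPL37, MRPL45, MRPS10 and MRPS12 passed in 7 of 9 and were lost only without Control replicate 1 or Control replicate 2, with highest adjusted p-values of 0.05996, 0.06335, 0.08827 and 0.1002, all without Control replicate 2. MRPS18B and MRPS2 passed in 4 of 9, with adjusted p-values of up to 0.1617 and 0.1635 without Control replicate 2. MRPS25 passed in 2 and MRPS9 in 1, with up to 0.1202 and 0.1357 without Control replicate 3. The number of members up was 0 without Control replicate 1 and without Control replicate 2, and 2 without shGATA2a replicate 1, shGATA2a replicate 2 or shGATA2b replicate 3. The number down was 1 without either of the same 2 Controls and 3 without shGATA2a replicate 1 or shGATA2b replicate 1. No share of all genes is given here for these fits, so a lower count may not be particular to the members. Fitting all 27 libraries together by limma called 0 members in DU145-DR in either direction (8 at an unadjusted p under 0.05), with 4.25% of all genes passing.

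MRPL27 showed the largest change among the called members of any line, and its promoter is printed because of it. The protein's bacterial counterpart reaches towards the peptidyl transferase centre, where peptide bonds form. The RefSeq window from 250 bases before to 50 bases after the annotated start (GRCh38.p14, chr17:50373135-50373434, minus strand, read 5′ to 3′) is in lower case. Capitals mark every match, on either strand, to the letters searched here: CCGGAAGT (the site of ETS-family factors), TGATAG (a form of the GATA site) and CCAAT.
MRPL27: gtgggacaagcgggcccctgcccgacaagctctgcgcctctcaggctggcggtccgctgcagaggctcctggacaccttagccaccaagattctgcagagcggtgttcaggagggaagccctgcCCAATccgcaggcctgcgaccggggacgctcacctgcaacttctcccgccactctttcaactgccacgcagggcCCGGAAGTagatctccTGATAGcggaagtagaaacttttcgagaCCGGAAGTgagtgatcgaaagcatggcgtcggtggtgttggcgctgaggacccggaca
The ETS letters began 52 and 8 bases before the start and the GATA letters 36 bases before it, which is a description of the sequence and not evidence of binding.

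In ARCaPM-DR, MRPL27 had 91.8, 107 and 113 with shGATA2a and 128, 139 and 97.3 with shGATA2b, against 301, 216 and 227 with the control hairpin. Even the highest knockdown library was far below the lowest Control, with a log2 change of -1.13 (SE 0.17, limma adjusted p = 0.00199). In DU145-DR the same gene had 325, 308 and 269 with shGATA2a and 343, 288 and 266 with shGATA2b, against 369.9, 360.0 and 289.8 with the control hairpin. There the groups overlapped, and the change was -0.18 (limma adjusted p = 0.3297). In 22Rv1-DR it had 193, 230.4 and 188 with shGATA2a and 209, 197 and 173 with shGATA2b, against 246, 263 and 152 with the control hairpin, also overlapping, with a change of -0.12 (limma adjusted p = 0.837) and, without replicate 3, of -0.30 (limma adjusted p = 0.5984). The Control levels of ARCaPM-DR overlapped those of both other lines, while its knockdown libraries lay below every other library of the study for this gene.

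MRPL27 lies head to head with EME1, which encodes a subunit of a DNA repair nuclease and starts 45 bases away on the opposite strand. In ARCaPM-DR, EME1 had 234, 181 and 206 with shGATA2a and 203, 162 and 228 with shGATA2b, against 197, 143 and 191 with the control hairpin. Those groups overlapped, and the log2 change was 0.19 (SE 0.17, limma adjusted p = 0.4515). The decrease of MRPL27 therefore had no counterpart past the threshold in its neighbour. MRPL27 has 0 annotated pseudogenes and no exon overlap with another gene.

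MRPS14, MRPL33 and MRPS36 rose in ARCaPM-DR. MRPS14, a small subunit protein of bacterial descent, had 304, 221 and 276 with shGATA2a and 295, 277 and 342 with shGATA2b, against 169, 173 and 173 with the control hairpin. The Controls lay within a few counts of each other and below every knockdown library, with a log2 change of 0.72 (limma adjusted p = 0.006172). MRPL33, the counterpart of a small bacterial large subunit protein, had 892, 637 and 921 with shGATA2a and 828, 727 and 988 with shGATA2b, against 596, 506 and 649 with the control hairpin. Replicate 2 of shGATA2a lay below the highest Control, so the groups overlapped, and the change was 0.50 (limma adjusted p = 0.04942). MRPS36, named as a small subunit protein but since described as a component of the 2-oxoglutarate dehydrogenase complex, had 723, 563 and 754 with shGATA2a and 613, 603 and 733 with shGATA2b, against 467, 474 and 529 with the control hairpin. Its groups did not overlap, and the change was 0.43 (limma adjusted p = 0.04105).

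MRPL27 and MRPS14 passed in ARCaPM-DR whichever of the 9 libraries was left out, with highest adjusted p-values of 0.01572 and 0.0339. MRPL33 passed in 2 of 9 (adjusted p of up to 0.1767, without Control replicate 2) and MRPS36 in 1 (up to 0.1454, without Control replicate 1), and MRPS36 has 5 annotated pseudogenes. The number of members up in ARCaPM-DR was 5 without shGATA2a replicate 2. It was 1 without any one of Control replicates 1, 2 and 3, shGATA2a replicates 1 and 3 and shGATA2b replicates 1 and 3. The number down was 2 without shGATA2a replicate 2. For these fits too, no share of all genes is given. Counted without a test, all 6 knockdown libraries lay above all 3 Controls for 7 members in DU145-DR (9.21%, against 10% of all genes) and below them for 5 (6.58%, against 8.74%). In ARCaPM-DR the counts were 4 (5.26%, against 11%) and 3 (3.95%, against 10%).

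**Figure D2:**
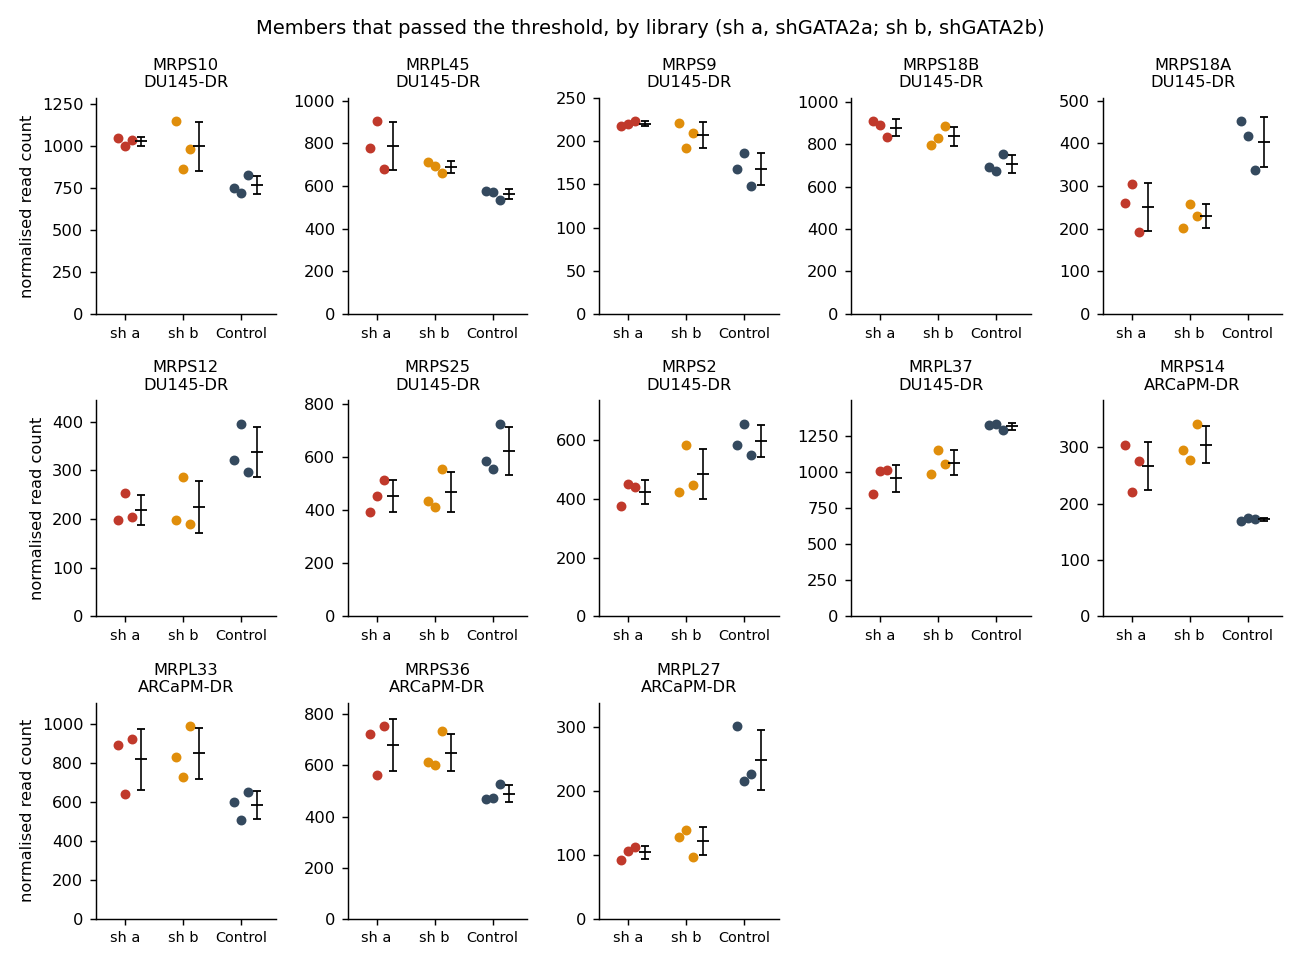
Normalised read count in each library of the 13 members past the threshold, in the line where they passed, with shGATA2a (sh a), shGATA2b (sh b) and Control from left to right, the cross-bar the mean and the error bar the SD of 3 libraries. MRPL27 and MRPS14 show the widest separation from Control, and MRPS2 and MRPL33 have a knockdown library inside the range of the Controls.

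In 22Rv1-DR no member passed, by limma or by edgeR's quasi-likelihood test on recovered reads. At an unadjusted p under 0.05 there was 1 of 76 members, against 1379 of 13757 genes tested. It was the small subunit gene MRPS23, with a log2 change of 0.52 (SE 0.20, limma adjusted p = 0.4336). The largest change was in MRPS36, at 0.92 (limma adjusted p = 0.555). That gene had 285, 285 and 221 with shGATA2a and 295, 266 and 219 with shGATA2b, against 267, 283 and 33.4 with the control hairpin. The groups overlapped, and replicate 3 of the Controls lay far below all other libraries. Knockdown libraries lay wholly above the Controls for 1 member (1.32%, against 2.9% of all genes) and wholly below them for 1 (1.32%, against 4.04%). Without the replicate 3 libraries, 0 members passed (2 at an unadjusted p under 0.05), and the changes of MRPS23 and MRPS36 were 0.25 and 0.04.

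The replicate 3 libraries of 22Rv1-DR held less of these transcripts as a group. Summed over the 76 genes, they had normalised read counts of 34224 with shGATA2a and 34594 with shGATA2b, against 28414 with the control hairpin, while the other 6 libraries of the line ran from 38564 to 41572. In all 3 arms, 42 of 76 members (55.26%) lay below both other replicates, against 14.78% of all genes, and 2 (2.63%) lay above both, against 17.53%. The median difference of replicate 3 from the other replicates was -0.43 on the log2 scale, beside 0.02 over all genes. It was lowest in MRPS36 at -1.24 and in MRPL22, a protein beside the exit tunnel, at -1.03. DU145-DR replicate 3 leaned the same way, with 27 members (35.53%, against 13.66% of all genes) below both others, whereas ARCaPM-DR replicate 3 had 12 (15.79%, against 16.02%). What the replicate number marks is not given in the labels.

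By group, the 76 genes took 0.298% to 0.375% of a library's summed values. The ratio of large to small subunit sums, with subunits taken from the symbols, was highest in DU145-DR in every arm. It was 1.74 with shGATA2a and 1.70 with shGATA2b, against 1.74 in Control, in DU145-DR. In 22Rv1-DR it was 1.54 and 1.53, against 1.52, and in ARCaPM-DR 1.46 and 1.44, against 1.49 (SD at most 0.0626, n = 3 in each group).

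**Figure D3:**
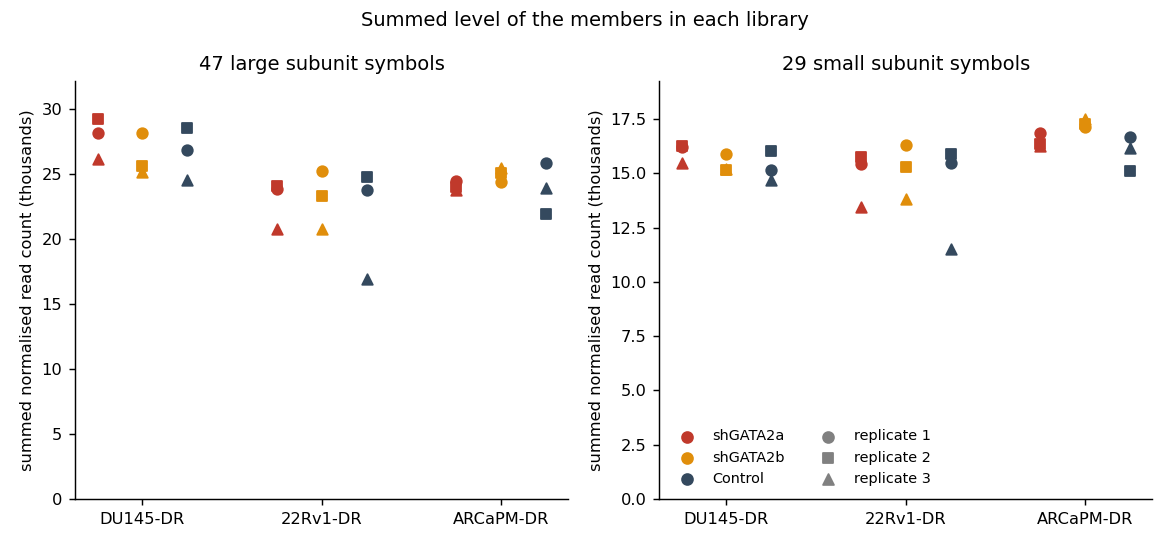
Sum of the normalised read counts of the large (MRPL) and small (MRPS) subunit symbols in each of the 27 libraries, by line, with shGATA2a, shGATA2b and Control from left to right. The replicate 3 libraries of 22Rv1-DR are the lowest of their line in every arm, and the Control replicate 3 library is the lowest of all.

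The hairpins share a target and differ in sequence, so they were also compared with each other (shGATA2b minus shGATA2a). No member passed in any line, by limma or edgeR, while 0% of all genes passed in DU145-DR and in 22Rv1-DR and 0.803% in ARCaPM-DR. At an unadjusted p under 0.05 the members numbered 4 in ARCaPM-DR and 0 in each of the other lines, the 4 being MRPL35, MRPL39, MRPL49 and MRPS12. Of all genes, 1486 of 13079 had such a p in ARCaPM-DR, 787 of 13362 in DU145-DR and 13 of 13757 in 22Rv1-DR. MRPS12 in ARCaPM-DR had 178, 206 and 179 with shGATA2b and 138, 158 and 46.6 with shGATA2a. The value of 46.6, far below the rest, came from shGATA2a replicate 3, the shallowest library of the study (3.44 M recovered reads). The MRPS12 difference was 0.88 (SE 0.38, limma adjusted p = 0.4186). With the replicate as a block MRPS12 was the 1 member called between hairpins, with a limma adjusted p of 0.03262 and 12.5% of all genes passing.

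Whether an effect differed between lines was tested in a joint fit of all 27 libraries. MRPL27 was the 1 member of 76 past the threshold (moderated F test, limma adjusted p = 0.01192), where 7% of all genes passed. Its effect in ARCaPM-DR minus that in DU145-DR was -0.95 on the log2 scale (SE 0.24, limma adjusted p = 0.016), and minus that in 22Rv1-DR -1.01 (SE 0.24, limma adjusted p = 0.01723). For those 2 pairs of lines, 7.13% and 3.39% of all genes passed. Without 22Rv1-DR replicate 3 the MRPL27 difference from 22Rv1-DR was -0.83 (SE 0.23, limma adjusted p = 0.04559). Between 22Rv1-DR and DU145-DR no member passed, by limma, with 1.09% of all genes passing. At an unadjusted p under 0.05 there were 4 of 76 members, against 2040 of 15295 genes. With the replicate as a block that pair gave 4 members (MRPL37, MRPS18A, MRPS2 and MRPS25, with 10.3% of all genes passing). The pairs with ARCaPM-DR then gave 6 against DU145-DR (20.5% of all genes) and 4 against 22Rv1-DR (14.9%), MRPL27 in both.

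The members next in order of p for a difference between lines were MRPS18A, MRPS14, MRPL37 and MRPS2, with limma adjusted p-values of 0.05476, 0.0634, 0.1198 and 0.2512. In that fit their effects are not shown to differ between lines, whereas with the replicate as a block all 4 passed (adjusted p of 0.002268, 0.009648, 0.006348 and 0.01881 in the same order of genes). Without the replicate 3 libraries of 22Rv1-DR, 3 members passed (MRPL27, MRPS14 and MRPS18A), with 9.53% of all genes passing. In that fit, made without the block, MRPL37 and MRPS2 had limma adjusted p-values of 0.06552 and 0.4898 by the F test. The count of members with a difference was 0 without ARCaPM-DR Control replicate 1, where MRPL27 had an adjusted p of 0.0727. It was 3 without 22Rv1-DR Control replicate 2 or ARCaPM-DR shGATA2a replicate 2. It was 2 without any one of 22Rv1-DR Control replicate 3, shGATA2a replicate 3 and shGATA2b replicate 3 and ARCaPM-DR Control replicate 2 and shGATA2a replicate 3. With the block it was 7 (MRPL27, MRPL37, MRPS14, MRPS18A, MRPS2, MRPS25 and MRPS28), with 26.2% of all genes passing. For the fits that left out a single library no share of all genes is given.

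More members differed between lines than between knockdown and Control within a line. In the Controls alone, 41 of 76 members differed between 22Rv1-DR and DU145-DR (11 higher and 30 lower in 22Rv1-DR), where 67.6% of all genes did (35.2% higher and 32.4% lower). Between ARCaPM-DR and DU145-DR, 35 differed (12 higher and 23 lower in ARCaPM-DR), against 56.1% of all genes (27.2% higher and 29% lower). Between ARCaPM-DR and 22Rv1-DR 37 differed (22 higher and 15 lower in ARCaPM-DR), against 67.1% (30.8% higher and 36.4% lower). With both directions together, each share of members lay below that of all genes. By direction, the share lower in 22Rv1-DR than in DU145-DR (39.5%, against 32.4%) lay above that of all genes, in counts that include 22Rv1-DR replicate 3. The share lower in ARCaPM-DR than in DU145-DR (30.3%, against 29%) was near that of all genes. A line cannot be told apart from the culture it was grown in. The members' median difference was -0.41 in 22Rv1-DR relative to DU145-DR (0.04 over all genes), -0.13 in ARCaPM-DR relative to DU145-DR (-0.04) and 0.25 in ARCaPM-DR relative to 22Rv1-DR (-0.10). Without 22Rv1-DR replicate 3 the medians with that line were -0.25 and 0.09, and 40 and 47 members differed, where 68.7% and 69.3% of all genes did. The ARCaPM-DR and DU145-DR count was 23 without DU145-DR Control replicate 1 and 21 without DU145-DR Control replicate 2. Shares of all genes in those fits are not given.

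The clearest case was MRPS35, a small subunit protein of mitochondria. It had 822, 870.0 and 869 in ARCaPM-DR Controls and 1582, 1414 and 1117 in 22Rv1-DR Controls, against 270.1, 277 and 305 in DU145-DR Controls. No line overlapped another, and the log2 difference from DU145-DR was 1.59 in ARCaPM-DR and 2.25 in 22Rv1-DR (limma adjusted p = 1.617e-07 for 22Rv1-DR), the second being 2.39 without replicate 3. MRPS9 had 665, 700.0 and 614 in ARCaPM-DR, 475, 455 and 365 in 22Rv1-DR and 168, 187 and 149 in DU145-DR. DU145-DR was again lowest, with differences of 1.97 in ARCaPM-DR and 1.35 in 22Rv1-DR (1.47 without replicate 3). MRPS27, a pentatricopeptide repeat protein of the small subunit, had 2121, 2036 and 2004 in ARCaPM-DR, against 886, 836 and 893 in DU145-DR, a difference of 1.24 (limma adjusted p = 5.33e-06).

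MRPS21, a small subunit protein with a bacterial counterpart, went the other way. Its Controls had 193, 166 and 166 in ARCaPM-DR, 544, 602 and 248 in 22Rv1-DR and 1336, 1589.8 and 1096 in DU145-DR. The ARCaPM-DR difference from DU145-DR was -2.92 (limma adjusted p = 6.439e-06) and that of 22Rv1-DR -1.61 (-1.21 without replicate 3), and MRPS21 has 8 annotated pseudogenes. MRPL48, a protein of the large subunit, had 164, 129.7 and 159 in ARCaPM-DR, against 648, 699 and 377 in 22Rv1-DR, a difference of -1.88 (limma adjusted p = 2.69e-05) and of -2.16 without replicate 3. MRPL9, whose bacterial counterpart projects from the large subunit, had 509, 417 and 475 in ARCaPM-DR, against 1096, 1126 and 1073 in DU145-DR, and the groups lay far apart, with a difference of -1.24.

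Some of the larger line differences leaned on replicate 3 of 22Rv1-DR. MRPS6, a small subunit protein of bacterial descent, had 71.4, 77.4 and 17.9 in 22Rv1-DR, against 215, 218 and 173 in DU145-DR. The log2 difference was -2.09 (limma adjusted p = 0.001602) and -1.42 without replicate 3, and an exon of SLC5A3 overlaps MRPS6 on the same strand. MRPL22 had 477, 360.1 and 519.6 in ARCaPM-DR, against 221, 222 and 35.9 in 22Rv1-DR. Its difference was 1.87 (limma adjusted p = 0.0105), and 1.01 without replicate 3. In the same comparison MRPS36 had a difference of 1.83 (limma adjusted p = 0.02291) and, without replicate 3, of 0.83, and MRPS26, a small subunit protein without a bacterial counterpart, one of -1.64 and -1.23. The MRPS36 call was lost without any one of the ARCaPM-DR Controls, replicates 1, 2 and 3.

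**Figure D4:**
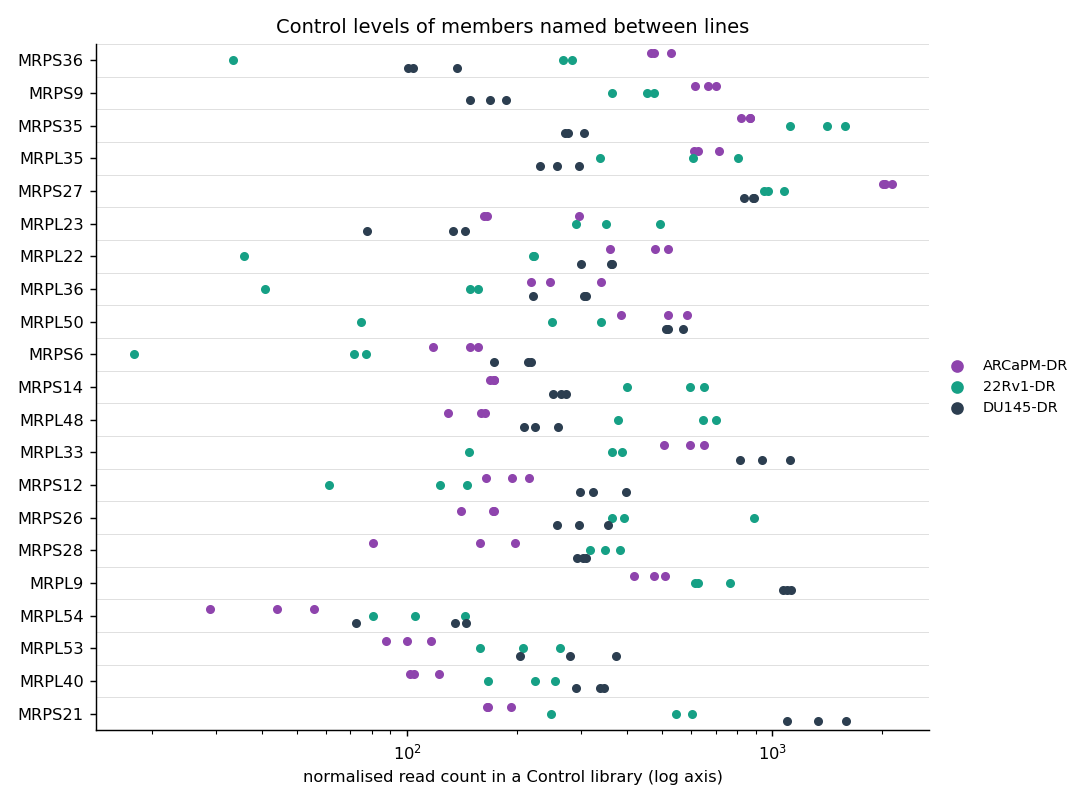
Normalised read count on a log axis in the 9 Control libraries of members with the largest differences between lines, each point a library, with ARCaPM-DR, 22Rv1-DR and DU145-DR drawn apart. MRPS35 and MRPS9 are lowest in DU145-DR, MRPS21 and MRPL9 are lowest in ARCaPM-DR, and a single low 22Rv1-DR point, replicate 3, stands out for MRPS6 and MRPL22.

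Levels of different members can be compared only per length. Lengths were those of the longest principal transcript (GENCODE release 29), in kilobases. Divided by them, the mean normalised read count over all libraries ran over a 23.0-fold range with a median of 303 per kilobase. The median was 315 for large subunit symbols and 290.0 for small subunit symbols. Highest were MRPL33 (1393 per kilobase), MRPL24 (914), MRPL3 (897), MRPL37 (843) and MRPL20 (732), all of the large subunit. Lowest were MRPS11 (60.6), MRPL55 (70.0), MRPL42 (92.3), MRPS33 (96.0) and MRPS23 (104). The transcripts used for MRPL42, MRPS23, MRPS33 and MRPS11 have 15582, 5621, 4241 and 3644 bases. Their low values per kilobase therefore depend on the choice of the longest transcript.

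Many members sit beside a second gene that starts close by on the other strand. Of 68 members with a RefSeq promoter window, 25 (36.765%) had such a start within 1000 bases, against 3300 of 14891 protein-coding genes (22.161%). MRPL46 and MRPS11, a large and a small subunit gene, start 320 bases from each other, and neither passed in any line, although MRPS11 did in DU145-DR with the replicate as a block (0.30, limma adjusted p = 0.01877). MRPS12 and SARS2, which encodes the mitochondrial enzyme that charges serine transfer RNA, start 181 bases apart. In DU145-DR MRPS12 fell, whereas SARS2 had a log2 change of 0.18 (limma adjusted p = 0.2425). MRPS18B and PPP1R10, a regulatory subunit of a nuclear phosphatase, start 597 bases apart, and both rose in DU145-DR (0.28 and 0.29, limma adjusted p = 0.03579 and 0.03886).

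The promoters of MRPS18A, which fell, and of MRPS10 and MRPS9, which rose in DU145-DR, are printed to show what windows of members that moved in opposite directions hold. All are RefSeq windows of GRCh38.p14 from 250 bases before to 50 after the start, read 5′ to 3′: chr6:43687742-43688041 (minus strand) for MRPS18A, chr6:42217812-42218111 (minus strand) for MRPS10 and chr2:105037819-105038118 (plus strand) for MRPS9. Capitals mark, on either strand, AAGATGGCG (a site of the factor YY1), the NRF1 site (GCGCA and GCGC separated by any base), which an activator of nuclear genes for mitochondria binds, and CCAAT.
MRPS18A: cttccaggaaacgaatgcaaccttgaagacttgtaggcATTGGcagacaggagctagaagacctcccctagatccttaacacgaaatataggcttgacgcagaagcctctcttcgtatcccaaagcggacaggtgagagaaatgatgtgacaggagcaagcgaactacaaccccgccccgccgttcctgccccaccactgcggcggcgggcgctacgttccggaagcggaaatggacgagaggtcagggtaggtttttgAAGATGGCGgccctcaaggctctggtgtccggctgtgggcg
MRPS10: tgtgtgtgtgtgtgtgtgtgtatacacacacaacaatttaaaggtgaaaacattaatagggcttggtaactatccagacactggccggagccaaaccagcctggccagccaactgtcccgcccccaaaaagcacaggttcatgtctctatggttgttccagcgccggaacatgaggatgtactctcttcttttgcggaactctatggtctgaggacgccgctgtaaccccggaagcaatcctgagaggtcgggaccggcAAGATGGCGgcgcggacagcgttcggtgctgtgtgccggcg
MRPS9: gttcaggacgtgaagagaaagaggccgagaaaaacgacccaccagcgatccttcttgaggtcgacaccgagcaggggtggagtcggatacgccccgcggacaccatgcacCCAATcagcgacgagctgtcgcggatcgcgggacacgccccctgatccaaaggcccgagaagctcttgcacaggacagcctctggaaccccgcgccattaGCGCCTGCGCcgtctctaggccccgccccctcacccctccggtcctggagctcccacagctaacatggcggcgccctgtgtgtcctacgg
MRPS18A and MRPS10 both hold the YY1 letters 9 bases after the start, so the member that fell and a member that rose share them at the same place. MRPS9 holds the NRF1 letters 40 bases and CCAAT 140 bases before its start.

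Across the 68 windows, AAGATGGCG occurred in 13 (19.118%), against 3.317% of 14891 protein-coding windows of the same length. In 11 members it lay on the sense strand, and in 9 of these (81.818%) its ATG was the annotated start codon, against 57.784% of 379 protein-coding genes with it on that strand. CCGGAAGT occurred in 12 member windows (17.647%, against 7.125%) and the NRF1 letters in 8 (11.765%, against 9.751%). The GATA letters (GATA with A or T before it and A or G after it) occurred in 10 (14.706%, against 24.579%) and CCAAT in 23 (33.824%, against 42.321%). Windows of MRPS2, MRPS25, MRPL33, MRPS14 and MRPS36 held none of these letters, MRPL45 held the NRF1 letters, MRPS12 and MRPL37 held CCAAT and MRPS18B the YY1 letters. No 2 of these matches overlap in the printed windows, and a match describes letters, not binding.

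Among the genes that build the mitochondrial ribosome, NGRN moved in all 3 lines. NGRN encodes neugrin, which is needed for the large mitochondrial ribosomal RNA. In DU145-DR it had 1969, 2052 and 1720.5 with shGATA2a and 1905, 1713 and 1676 with shGATA2b, against 1121, 937 and 845 with the control hairpin. In 22Rv1-DR it had 1419, 1436 and 1415 with shGATA2a and 1359, 1437 and 1350.2 with shGATA2b, against 831, 805 and 714 with the control hairpin. In ARCaPM-DR it had 996, 1017 and 1045 with shGATA2a and 1178, 1092 and 1145 with shGATA2b, against 559, 519 and 589 with the control hairpin. In each line every knockdown library lay well above every Control. The log2 changes were 0.93 (SE 0.10), 0.84 (SE 0.12) and 0.96 (SE 0.09), with limma adjusted p-values of 2.353e-04, 0.02565 and 1.811e-04. The test of a difference between lines gave an adjusted p of 0.8364.

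Of the NGRN values, 2 Controls in DU145-DR and 2 in 22Rv1-DR, replicates 2 and 3 in both, were not whole reads, and all of its ARCaPM-DR values were. Control replicate 1 of those 2 lines, which was whole, also lay below every knockdown library. Leaving out a library in turn kept the call in 9 of 9 cases in DU145-DR and in ARCaPM-DR, but in 1 of 9 in 22Rv1-DR, where the highest adjusted p was 0.1099, without Control replicate 2. Without all 3 libraries of replicate 3 the 22Rv1-DR change of NGRN was 0.79 (limma adjusted p = 0.05158). With the 58 genes holding such values set aside, NGRN among them, 1 gene was called in 22Rv1-DR.

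Of 23 assembly and ribosomal RNA modification factors measured, NGRN included, 3 rose in DU145-DR and 1, NGRN, in 22Rv1-DR, while in ARCaPM-DR 4 rose and 2 fell. Over all genes, 8.72% rose in DU145-DR and 0.124% in 22Rv1-DR, while in ARCaPM-DR 9.86% rose and 8.62% fell. By the moderated F test (limma) none of the 23 had an effect past the threshold for a difference between lines. At an unadjusted p under 0.05 there were 3, against 3309 of 15295 genes. For ARCaPM-DR minus DU145-DR alone, 1 of the 23 passed, with the lower effect in ARCaPM-DR, where 7.13% of all genes passed. The 3 that rose in DU145-DR were NGRN, METTL17 (0.38), which helps assemble the small subunit, and TFB1M (0.38), which methylates its ribosomal RNA. METTL17 had a change of 0.46 in ARCaPM-DR that did not pass (limma adjusted p = 0.07079). In ARCaPM-DR, ERAL1, a chaperone of the small ribosomal RNA, fell by 0.81 (limma adjusted p = 0.003942), and TRMT61B, a methyltransferase of mitochondrial RNA, rose by 0.62 (limma adjusted p = 0.004451). ERAL1 and TRMT61B passed whichever library was left out, METTL17 in 7 of 9 cases and TFB1M in 2, with adjusted p-values of up to 0.1494 and 0.1432 without Control replicate 1. The median change of the list was 0.08 in DU145-DR (0.00 over all genes), -0.01 in 22Rv1-DR (-0.02) and -0.01 in ARCaPM-DR (0.00).

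Of 16 translation factors, 1 rose in DU145-DR, the release factor MTRF1L (0.52, limma adjusted p = 0.004392), and 0 passed in 22Rv1-DR, where 1 had an unadjusted p under 0.05. In ARCaPM-DR the elongation factor GFM1 (0.59, limma adjusted p = 0.01292) and the recycling factor GFM2 (0.39, limma adjusted p = 0.02214) rose. Of the factors of mitochondrial transcription and RNA processing, 1 of 17 rose in DU145-DR, TFAM (0.48, limma adjusted p = 0.03118), which packages and transcribes mitochondrial DNA. In ARCaPM-DR 1 of 16 fell, ELAC2, which trims the ends of transfer RNA precursors (-1.16, limma adjusted p = 6.434e-04), and its effect differed between lines (adjusted p = 0.001266). In 22Rv1-DR 0 of 17 passed, with 1 at an unadjusted p under 0.05. Beside the calls of both lists, 8.72% of all genes rose in DU145-DR, and 9.86% rose and 8.62% fell in ARCaPM-DR. Leaving out each library in turn, MTRF1L and ELAC2 passed in 9 of 9, GFM1 in 8 (adjusted p of 0.05373 without Control replicate 2), TFAM in 6 (up to 0.1672 without Control replicate 2) and GFM2 in 5 (up to 0.1024 without Control replicate 3).

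Of the regulators of nuclear genes for mitochondria, 2 of 9 passed in ARCaPM-DR, 0 of 9 in DU145-DR and 0 of 10 in 22Rv1-DR, where 2 and 1 had an unadjusted p under 0.05. In ARCaPM-DR the ETS-family factor GABPA rose by 0.97 (limma adjusted p = 0.001025), with a difference between lines at an adjusted p of 0.03111, and the coactivator PPRC1 fell by 0.68 (limma adjusted p = 0.02751). The test of a difference between lines gave an adjusted p of 0.0803 for PPRC1. GABPA passed in 9 of 9 fits without a library and PPRC1 in 4, with an adjusted p of up to 0.1125 without Control replicate 2. The 7 mitochondrial ribosomal proteins with other symbols, such as DAP3, gave 0 calls in each line, with 1 at an unadjusted p under 0.05 in each. Of cytoplasmic ribosomal protein symbols, 2 rose and 4 fell of 81 in DU145-DR, 0 of 80 passed in 22Rv1-DR (2 unadjusted), and 1 rose and 5 fell of 79 in ARCaPM-DR. Their median changes were -0.12, 0.13 and -0.08, beside the members' 0.05, 0.11 and 0.03. Nuclear-encoded respiratory chain subunits, which mature beside the products of these ribosomes, gave 2 down in DU145-DR, 0 in 22Rv1-DR (3 unadjusted) and 4 up and 4 down in ARCaPM-DR, of 76 in each line. By edgeR the lists with 0 limma calls in a line also had 0 there. Over all genes tested by limma, an unadjusted p under 0.05 with knockdown was found for 4284 of 13362 in DU145-DR. The same held for 1379 of 13757 in 22Rv1-DR and 4358 of 13079 in ARCaPM-DR. At the adjusted threshold, 8.72% of all genes rose and 7.98% fell in DU145-DR, and 9.86% rose and 8.62% fell in ARCaPM-DR. In 22Rv1-DR 0.4% passed.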

How the data were processed

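The data are 27 total RNA libraries in 9 groups of 3, taken from the labels. Per the submitters' processing notes, TopHat2 2.0.9 and Cufflinks 1.3.0 were used with hg19 (GRCh37). Not given in the sources used here are the counting program, the scaling tool and the use of strand. The deposited signal values are read counts per gene that the authors divided by 1 size factor per library: 99.954% of 433407 values above 0 were whole reads within 0.005 reads, and 199 values in 58 genes were not. The test design had left the unit open, and the test set for normalised values was used. Recovered reads ran from 3.44 M to 19.4 M per library. Replicate libraries were distinct beyond sampling noise (chi-square per degree of freedom of 6.36 to 103.67 over 27 pairs).

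Genes valued at 10 or more in at least 3 fitted libraries were tested with limma 3.58.1 (R 4.3.3, mean-variance trend) on log2(value + 1), a scale that understates changes of low genes. Each line was fitted alone (mean of both hairpin groups minus Control). All 27 libraries gave the test between lines and the 9 Controls the baseline. P-values were Benjamini-Hochberg adjusted over all genes, at 0.05. Named members were up to 12 per direction of a knockdown contrast and up to 5 per direction of the others, among those past the threshold with a mean of at least 50. Also named were the 5 with the smallest p between lines and extremes of level. The rule ranked levels over all libraries, and the 5 highest and lowest printed are ranked per kilobase. MRPS18C and NGRN's place among the results were chosen after their values were seen, and the members and lists with earlier results of these data known. Same-numbered libraries of a line deviated together (lowest correlation over genes with a mean of at least 50: 0.394 in DU145-DR, 0.265 in 22Rv1-DR, 0.132 in ARCaPM-DR; over all genes tested 0.275, 0.211 and 0.056, the last under the 0.1 used to call libraries paired), so the numbers were taken to pair them; the labels leave the meaning of a number unstated, so this rests on the data. Alternatives were a pseudocount of 0.1, no filter, TMM scaling, edgeR 4.0.16 quasi-likelihood on recovered reads, a replicate block, 1 fit of all libraries, genes with non-whole values left out, 22Rv1-DR replicate 3 left out, and each library left out; the test between lines without 22Rv1-DR replicate 3 was added after seeing the data. Scripts were tested on simulated data. Tables and figures used Python 3.11.15, pandas 2.3.3 and matplotlib 3.10.9.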

Additional observations from a re-analysis of the deposited data

Results flagged for a closer look

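MRPL27 drew attention because its knockdown effect differed between lines by a test of the difference itself (moderated F test over the lines, limma adjusted p = 0.01192). Its log2 change was -1.13 in ARCaPM-DR, -0.18 in DU145-DR and -0.12 in 22Rv1-DR. All 6 knockdown libraries lay below all 3 Controls in ARCaPM-DR, and the groups overlapped in both other lines. Without ARCaPM-DR Control replicate 1 the adjusted p between lines was 0.0727.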

How the results depend on the processing

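No named call of a knockdown or baseline contrast reversed direction under any alternative tried. Changes that had not passed could do so. In 22Rv1-DR, 48 members were higher and 28 lower with knockdown, but 37 and 39 without replicate 3. There the MRPS2 change went from 0.22 to -0.01. With the replicate number as a block, DU145-DR gave 13 members up, ARCaPM-DR 11 up, 6 down and 1 between hairpins, and 7 members differed between lines (3 without 22Rv1-DR replicate 3, an alternative chosen after seeing the data). For pairs of lines the block gave 4, 6 and 4 members, against 0, 1 and 1. In 1 fit of all 27 libraries DU145-DR gave 0 up and 0 down. Leaving out 1 library, the members up and down ran from 0 to 5 and 1 to 6 in DU145-DR and from 1 to 5 and 1 to 2 in ARCaPM-DR. Those differing in effect between lines ran from 0 to 3, and those differing at baseline from 28 to 45 (22Rv1-DR minus DU145-DR), 21 to 46 (ARCaPM-DR minus DU145-DR) and 31 to 47 (ARCaPM-DR minus 22Rv1-DR). The counts for 22Rv1-DR knockdown and between hairpins were 0 in each fit that left out a library. Shares of all genes passing are not given for the fits that left out a library. MRPS9 and MRPL33 also lost their calls with no filter, with TMM scaling and by edgeR; of the 9 and 4 calls, edgeR kept 8 in DU145-DR and 3 in ARCaPM-DR. The cause of these changes was not tested. Depth limits the lowest members, whose smallest value stood for 6 reads.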
